A study of Mus musculus with 7 samples.

Results

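Zcchc12, Chn2 and Tesc are 3 of the 24346 genes in a table of RNA levels from primary neurospheres of the adult mouse hippocampus, which are floating clusters grown from neural stem cells (NSCs). They were chosen by their values: in each gene all 3 libraries from Med23 conditional knockout (CKO) mice lie below all 4 control libraries. That contrast is therefore described here without a test. Med23 is a subunit of Mediator, the complex that links transcription factors to RNA polymerase II, and the comparison asks which genes differ when it is deleted in adult NSCs.

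The 3 Med23 CKO libraries (mice KO_117, KO_214 and KO_218) came from Nestin-CreER:Med23 flox/flox mice. The 4 control libraries (mice WT_215, WT_116, WT_213 and WT_220) came from littermates that the labels call wild type and the methods describe as Med23 flox/+ or Med23 flox/flox without Cre. All mice were of the C57/BL6 strain, both groups received tamoxifen at 200 mg/kg on 5 consecutive days, and each library is the culture of 1 mouse. The labels give an age of 2 months, whereas the methods place tamoxifen for cultures at 1 month. The control mice carried no Cre, and Nestin-driven Cre can also act in endothelial cells, so effects of Cre itself and of deletion in other cells cannot be told apart from loss of Med23 in NSCs. Levels are in FPKM, fragments scaled to transcript length and to the mapped fragments of a library. Read counts were not used here, so the depth behind each value is unknown and the number of mice limits the precision.

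The products of these genes act in separate signaling routes. Zcchc12, also called Sizn1, is a zinc-knuckle protein of the Pnma family that acts as a coactivator of BMP and CREB signaling and has been tied to cholinergic genes of the forebrain. Chn2 encodes beta-chimaerin, which switches off the small GTPase Rac when diacylglycerol binds its C1 domain, and it acts downstream of semaphorin and neuropilin in the pruning of hippocampal axons. Tesc encodes tescalcin, an EF-hand calcium-binding protein of the calcineurin B homologous group that is tied to sodium-proton exchange and inhibits calcineurin phosphatase.

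The genes lie on separate chromosomes of GRCm38, the build that is also called mm10, all on the forward strand. Zcchc12 (ENSMUSG00000036699.12) is a short gene of 3.26 kb at X:36195904-36199164 in RefSeq, and its longest coding transcript in GENCODE M21 has 4 exons. Chn2 (ENSMUSG00000004633.17) covers 262 kb at 6:54039932-54301812, with 11 coding transcripts that use 7 starts in GENCODE. Tesc (ENSMUSG00000029359.13) covers 34.1 kb at 5:118027743-118061878, and its coding transcript has 8 exons. The deposited values are summed over each gene, so the starts of Chn2 are not told apart by them.

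The 250 bases before the start sites are shown so that the starts of genes that are low in the same libraries can be compared. They come from RefSeq (GRCm38.p6), run 5′ to 3′ on the forward strand, and hold no exon of the gene in GENCODE. Capitals mark matches, on either strand, to GGGCGG (the Sp1 GC box), CCGGAA (the Ets core bound by Elk1), TGACG (the CRE core), CCAAT (bound by NF-Y), CACGTG (an E-box) or TATAAA (the TATA box). The Chn2 window lies before one of its internal starts.
Zcchc12, X:36195654-36195903: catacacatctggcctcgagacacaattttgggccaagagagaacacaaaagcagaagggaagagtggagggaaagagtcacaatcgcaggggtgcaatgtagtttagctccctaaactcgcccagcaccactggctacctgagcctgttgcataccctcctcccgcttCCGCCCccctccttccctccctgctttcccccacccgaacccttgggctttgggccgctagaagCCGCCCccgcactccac
Chn2, 6:54264608-54264857: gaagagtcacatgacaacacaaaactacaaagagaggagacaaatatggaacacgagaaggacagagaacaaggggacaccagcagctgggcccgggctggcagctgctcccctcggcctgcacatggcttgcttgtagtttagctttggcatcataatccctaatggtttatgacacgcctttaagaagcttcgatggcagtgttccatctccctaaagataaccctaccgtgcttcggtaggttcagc
Tesc, 5:118027493-118027742: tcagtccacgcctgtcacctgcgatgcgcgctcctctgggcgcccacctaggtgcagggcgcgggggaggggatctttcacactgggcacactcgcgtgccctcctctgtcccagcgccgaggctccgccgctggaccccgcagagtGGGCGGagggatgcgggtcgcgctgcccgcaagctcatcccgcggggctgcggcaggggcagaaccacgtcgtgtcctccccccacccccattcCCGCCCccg

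Zcchc12 and Tesc each held 2 GC boxes, a match found in 32.7% of the 32851 windows of this length in the table. None of the 4 windows of Chn2 held one, and CCAAT, present in 33.8% of all windows, was met once, before another internal start of Chn2. The Ets core, CRE core, E-box and TATA box were absent from all 6 windows of the 3 genes, and 12.03%, 17.8%, 6.02% and 12.4% of all windows hold them. The GC content was 73.2% for Tesc, 58.8% for Zcchc12 and 50.4% for the Chn2 window shown, against a median of 52.4%. The outermost RefSeq start of Chn2, which overlaps exons of other Chn2 transcripts and is not printed, had a GC content of 74.8% with 34 CpG, and Tesc had 26 CpG. No motif searched was shared by the windows of all 3 genes.

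Zcchc12 had the largest difference of the 3. Its FPKM was 26.2 in WT_215, 10.4 in WT_116, 19.6 in WT_213 and 28.4 in WT_220, and 3.87 in KO_117, 3.05 in KO_214 and 2.78 in KO_218. The control mice differed among themselves by up to 2.73-fold, while the Med23 CKO mice lay within 1.39-fold, and the lowest control was 2.70-fold above the highest Med23 CKO mouse. The mean was 21.2 ± 8.07 FPKM (SD, n = 4) for control mice and 3.23 ± 0.565 FPKM (SD, n = 3) for Med23 CKO mice, which is 15.3% of the control mean. On the log2(FPKM + 1) scale, with a pseudocount of 1, the difference of Zcchc12 was -2.31 (SE 0.34).

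Chn2 had FPKM values of 27.7 in WT_215, 14.6 in WT_116, 18.7 in WT_213 and 38.6 in WT_220. In the Med23 CKO mice it had 6.82 in KO_117, 6.54 in KO_214 and 7.01 in KO_218. The Med23 CKO values of Chn2 were nearly level, within 1.07-fold, whereas the control values spanned 2.64-fold. The mean of Chn2 was 24.9 ± 10.6 FPKM (SD, n = 4) for control mice and 6.79 ± 0.240 FPKM (SD, n = 3) for Med23 CKO mice, 27.3% of control, with a log2 difference of -1.64 (SE 0.32). The lowest control value of Chn2 was 2.08-fold above its highest Med23 CKO value.

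Tesc had a lower level and the narrowest distance between the groups. Its FPKM was 7.31 in WT_215, 9.22 in WT_116, 11.88 in WT_213 and 11.7 in WT_220, and 2.42 in KO_117, 4.53 in KO_214 and 3.63 in KO_218. In contrast to Chn2, the Med23 CKO mice differed in Tesc by 1.87-fold, more than the 1.62-fold between control mice. The mean of Tesc was 10.02 ± 2.17 FPKM (SD, n = 4) for control mice and 3.53 ± 1.06 FPKM (SD, n = 3) for Med23 CKO mice, 35.2% of control, and the log2 difference was -1.29 (SE 0.26). The lowest control value of Tesc was 1.61-fold above its highest Med23 CKO value.

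**Figure D1:**
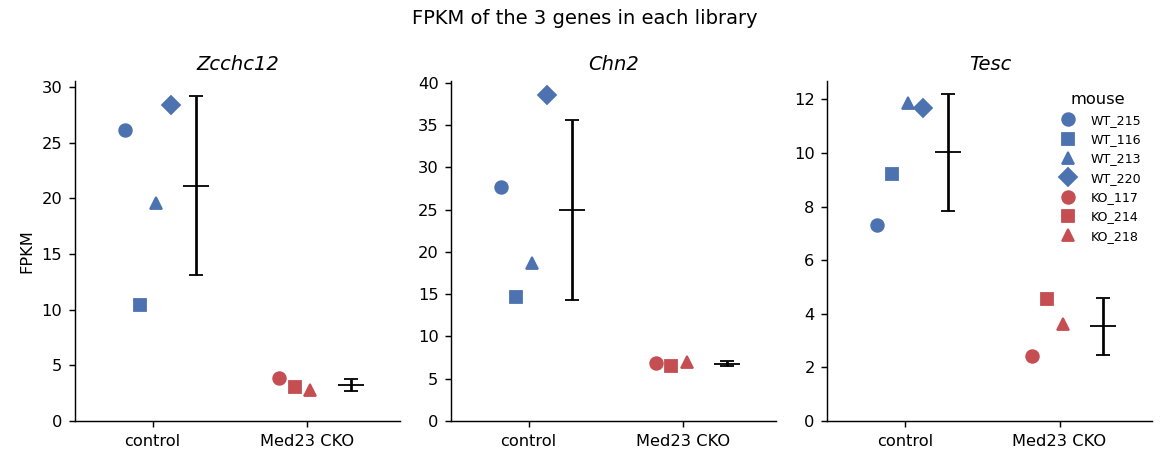
FPKM of Zcchc12, Chn2 and Tesc in each of the 7 libraries, with control mice in blue, Med23 CKO mice in red, and the mean ± SD of each group in black. The Med23 CKO values of Chn2 lie between 6.54 and 7.01, while its control values run from 14.6 to 38.6.

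Of the 14151 genes with a mean of at least 0.5 FPKM, 217 (1.53%) had every Med23 CKO value under every control value, and the 3 genes are among them by choice. Ordered by the log2 difference from the lowest among all genes tested, Zcchc12 was at rank 5, Chn2 at rank 14 and Tesc at rank 42. Among the 217 genes, the log2 distance between the lowest control and the highest Med23 CKO value put Zcchc12 at rank 1, Chn2 at rank 2 and Tesc at rank 7. In control, Chn2 and Zcchc12 stood above or level with 73.1% and 68.5% of the genes tested by mean FPKM, and Tesc with 47.1%. In Med23 CKO these shares were 35.9% for Chn2, 21.6% for Zcchc12 and 23.1% for Tesc. All 3 genes kept a measurable level in every Med23 CKO library.

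Since FPKM is scaled to length, the genes could be set beside each other. Control levels of Chn2 and Zcchc12 overlapped, and Tesc was below both in the mean, though its highest value of 11.88 exceeded the lowest of Zcchc12, 10.4. In Med23 CKO, Chn2 was above the other two in every library, and the values of Zcchc12 and Tesc overlapped. The ratio of Zcchc12 to Chn2 ran from 0.714 to 1.05 in control and from 0.397 to 0.567 in Med23 CKO, so the ranges did not overlap. Zcchc12 was the lower of the pair in every library of both groups except WT_213. The ratio of Tesc to Chn2 overlapped between the groups, with 0.264 to 0.635 in control and 0.356 to 0.694 in Med23 CKO. That of Tesc to Zcchc12 overlapped as well, with 0.280 to 0.884 in control and 0.627 to 1.49 in Med23 CKO. These ratios rest on the same values that chose the genes and were not tested.

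The order of the control mice was WT_220, WT_215, WT_213 and WT_116 from high to low in both Zcchc12 and Chn2. For Tesc it was WT_213, WT_220, WT_116 and WT_215. After the group means were subtracted, Pearson's r of log2(FPKM + 1) was 0.88 between Zcchc12 and Chn2, -0.09 between Zcchc12 and Tesc and 0.04 between Chn2 and Tesc, over 7 libraries that share their depth and cell makeup. On this measure Chn2 was at rank 240 among the genes most like Zcchc12, and Zcchc12 at rank 71 among those most like Chn2. The likeness held for the order of the control mice only, since the Med23 CKO order was KO_117, KO_214 and KO_218 in Zcchc12 and KO_218, KO_117 and KO_214 in Chn2.

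The control order of Zcchc12 and Chn2 was also that of Olig1, a transcription factor of oligodendrocyte precursors, and the reverse of that of Mbp, a myelin protein of mature oligodendrocytes. Both were singled out after their values were seen. Olig1 had 1943 FPKM in WT_220, 1361 in WT_215, 603 in WT_213 and 437 in WT_116. Mbp had 238, 838, 1023 and 2234 FPKM in the same mice. The order was not particular to Olig1. Sox2, a marker from the NSC list, had it as well, with 191, 155, 109 and 93.1 FPKM in these mice, and so did Smad5 and Id3. The share of all genes with this order was not determined. Among the Med23 CKO mice, KO_117 had 1586 FPKM of Olig1 and 66.5 of Mbp, KO_214 had 214.5 and 1515, and KO_218 had 334 and 1195. KO_117 was thus in the upper control range of Olig1 and below every control in Mbp. The fixed list of 12 oligodendrocyte lineage genes did not follow that order, with summed levels of 3460, 5522, 2991 and 3162 FPKM in WT_215, WT_116, WT_213 and WT_220 and of 2285, 3384 and 3119 FPKM in KO_117, KO_214 and KO_218. The part of oligodendrocyte lineage cells in the differences was not tested. In bulk RNA, fewer cells of a type and less RNA per cell cannot be told apart.

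**Figure D2:**
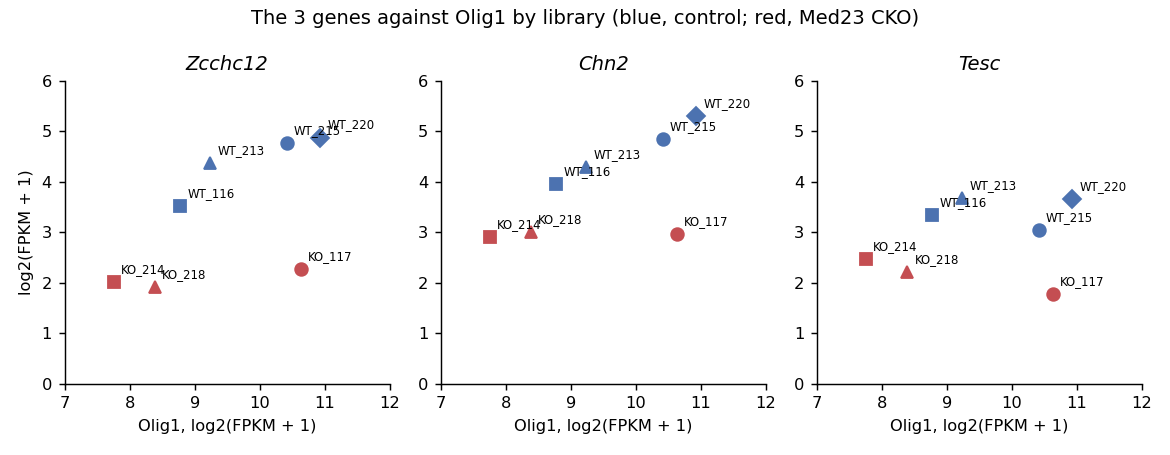
Level of Zcchc12, Chn2 and Tesc against that of Olig1, both as log2(FPKM + 1), with 1 point per library, blue for control and red for Med23 CKO. Among the 4 control points, Zcchc12 and Chn2 are ordered as Olig1 is, and Tesc is not, while the red points lie under the blue ones by the choice of the genes.

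Each Med23 CKO library was also set beside the control library it resembled most over the 14151 genes. The genes were chosen for being lower in every such pair, so the counts below only describe the size of the differences and test nothing. KO_117 was closest to WT_220, with Pearson's r = 0.974 across genes, which are not independent replicates. Zcchc12 was 3.87 FPKM against 28.4 in that pair, and 18 genes (0.127%) had a log2 difference at least as low, Zcchc12 included. For KO_218 and WT_213, with r = 0.979, Zcchc12 was 2.78 against 19.6 FPKM, and 10 genes (0.0707%) had a difference at least as low. For KO_214 and WT_116, with r = 0.930, the pair was 3.05 against 10.4 FPKM, and 60 genes (0.424%) were as low. Chn2 was matched by 25, 80 and 264 genes in these pairs in the same order, and Tesc by 58, 42 and 398. The values of all 3 genes stood nearest to those of other genes in the pair of KO_214 and WT_116, in which the libraries were least alike.

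Among 8 fixed lists of cell type markers, only the summed level of 8 genes of GABAergic fate separated the groups. It was 16.4 to 25.4 FPKM in control and 8.16 to 15.8 in Med23 CKO. Of single genes tested, 1.53% separated downwards and 0.784% upwards. No such share was determined for sums of markers, so this 1 list of 8 is described only. Of the 4 tested genes of this list, Gad1, which makes GABA, was lower at a limma unadjusted p under 0.05 and none was higher. Of all genes tested, 0.996% were lower, and 1 gene of 4 is too few to set the list apart from that share. Dlx5, Dlx6 and Slc32a1 were at 0 in at least 1 library. Marker sums of NSCs were 1840 to 3877 FPKM in control and 1784 to 3857 in Med23 CKO, with all 10 genes tested, and those of neuroblasts and neurons were 185 to 232 and 115 to 288. Microglial markers summed to 29.3 to 198 FPKM in control and to 32.1 in KO_117, 856 in KO_214 and 139 in KO_218. Endothelial markers summed to 13.6 to 78.4 FPKM in control and to 9.22, 149 and 46.7 in the same Med23 CKO mice, and mural markers to 14.3 to 89.9 and to 9.44, 242 and 66.2. Astrocyte markers summed to 290 to 487 FPKM in control and to 233, 776 and 499 in these mice. KO_214 was the highest of all libraries in the microglial, endothelial, mural and astrocyte sums. It was the lowest of all libraries in the GABAergic, NSC and neuroblast and neuron sums. KO_214 also had the highest Tesc of its group. The part of these cell types in the differences of the 3 genes was not tested.

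Med23 itself had 11.4, 10.3, 12.9 and 10.1 FPKM in WT_215, WT_116, WT_213 and WT_220. It had 9.97, 9.27 and 8.12 FPKM in KO_117, KO_214 and KO_218. The Med23 CKO values were all below control, with a log2 difference of -0.26 (SE 0.18) and a two-sided exact permutation p of 0.0571, where the smallest possible p was 0.0286. The FPKM covers the whole gene, exons outside the floxed ones included, so this value is a weak check of the deletion. The paper checked the deletion by other means, with qRT-PCR of Med23 in primary neurospheres and a western blot of hippocampal tissue.

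The closest relatives of the 3 genes, which the choice did not use, were compared by limma fitted over all genes tested. No gene passed after Benjamini-Hochberg adjustment, the smallest adjusted p being 0.999876, and 141 genes (0.996%) were lower and 71 (0.502%) higher at an unadjusted p under 0.05. The paper, by contrast, reported differential genes by Cuffdiff with 3 mice in each group, more of them higher than lower. Its method and set of libraries differ from those used here, so the counts cannot be compared directly. Zcchc18, the closest relative of Zcchc12, had 14.5, 20.4, 18.5 and 12.2 FPKM in the control mice WT_215, WT_116, WT_213 and WT_220, against 13.9, 19.7 and 19.1 in KO_117, KO_214 and KO_218. These values overlapped, with a log2 difference of 0.10 (SE 0.23, limma unadjusted p = 0.669). The level of Zcchc18 in control was 16.4 ± 3.73 FPKM (SD, n = 4), against 21.2 FPKM for Zcchc12.

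Chn1, which encodes alpha-chimaerin, another Rac GAP with a C1 domain, had 29.7, 23.9, 30.2 and 31.5 FPKM in WT_215, WT_116, WT_213 and WT_220. In Med23 CKO it had 27.4, 13.1 and 30.9 FPKM in KO_117, KO_214 and KO_218, so that only KO_214 fell outside the control range. The log2 difference of Chn1 was -0.35 (SE 0.30, limma unadjusted p = 0.281), and 0.02 without KO_214.

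Chp1, a relative of tescalcin that also binds sodium-proton exchangers, had 54.9, 58.1, 56.1 and 49.4 FPKM in WT_215, WT_116, WT_213 and WT_220. It had 62.4, 66.1 and 60.9 FPKM in KO_117, KO_214 and KO_218, all above control. Its log2 difference of 0.21 (SE 0.14) did not pass at limma unadjusted p = 0.177. Such a separation upwards was found in 111 genes (0.784%). Chp2 was under the minimum level, at no more than 0.481 FPKM, and was not tested.

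**Figure D3:**
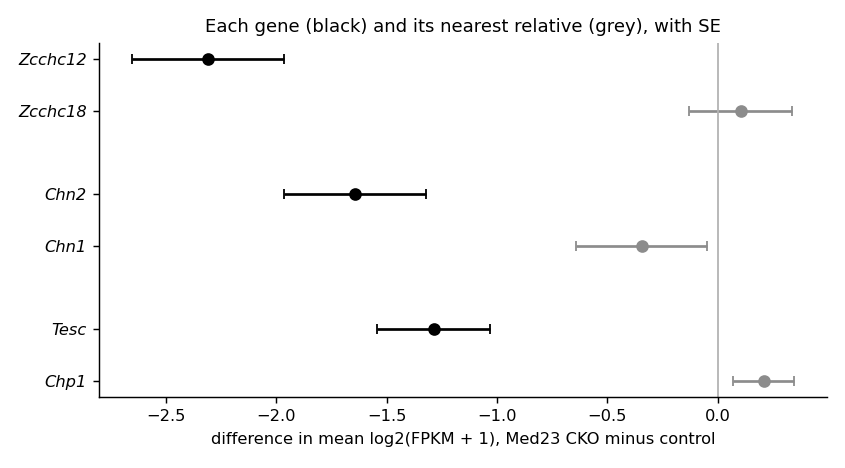
Difference in mean log2(FPKM + 1), Med23 CKO minus control, for Zcchc12, Chn2 and Tesc in black and for Zcchc18, Chn1 and Chp1 in grey, with bars of 1 SE. The relatives lie between -0.35 and 0.21, and the 3 genes between -2.31 and -1.29.

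The routes in which the 3 proteins act were covered by 9 lists with 150 other genes, of which 134 passed the minimum level. Bmpr1b, Dgkg and Ncald (3 of 134, 2.24%) were lower at an unadjusted p under 0.05, against 0.996% of all genes, and Rasgrp2 (1 of 134, 0.746%) was higher, against 0.502%. The median log2 difference was 0.03 over the 134 genes and -0.03 over all genes tested. Groups did not overlap in Dock1, Dgkg and Ppp3ca (3 of 134), all lower, against 217 of 14151 genes (1.53%). They did not overlap in Chp1 (1 of 134), which was higher, against 0.784% of all genes. With 3 genes and 1 gene, these shares are too few to set the lists apart from the background.

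Around Zcchc12, the 18 tested BMP receptors, Smads and Id targets had a median difference of 0.05, with 1 lower and none higher at an unadjusted p under 0.05. Bmpr1b, a type I BMP receptor, had 5.35, 1.97, 4.17 and 7.96 FPKM in the control mice WT_215, WT_116, WT_213 and WT_220, against 2.45, 1.35 and 0.757 in KO_117, KO_214 and KO_218. KO_117 overlapped with WT_116, and the log2 difference of Bmpr1b was -1.17 (SE 0.41, limma unadjusted p = 0.0235). This p rose above 0.05 when any 1 of WT_215, WT_220, KO_214 or KO_218 was left out, to as much as 0.0900 without KO_218.

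The most abundant genes of this list were the BMP targets Id2 and Id3 and the BMP-specific Smad5. Their log2 differences were 0.15 (SE 0.19) for Id2, 0.33 (SE 0.61) for Id3 and -0.66 (SE 0.37) for Smad5, and the groups overlapped in each. The 6 tested relatives of Zcchc12 in the Pnma family had a median of -0.27, with none past the threshold. Of 9 cholinergic genes 3 could be tested, Ache, Bche and Ngfr, which encode 2 cholinesterases and the p75 neurotrophin receptor, and their groups overlapped. Chat, which makes acetylcholine, and its vesicular transporter Slc18a3 were under the minimum level.

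Around Chn2, the list of 29 tested Rac proteins and Rac regulators had a median of 0.03, with none lower or higher at an unadjusted p under 0.05. Rac1, the substrate of beta-chimaerin, had a log2 difference of -0.06 (SE 0.23), and Cdc42, a related GTPase, 0.19 (SE 0.16). Dock1, an activator of Rac, was the 1 gene of these 29 whose groups did not overlap, while 1.53% of all genes separated downwards. It had 38.0 to 43.7 FPKM in control and 34.0 to 35.2 in Med23 CKO, with a log2 difference of -0.22 (SE 0.14, limma unadjusted p = 0.146). The 14 semaphorin, neuropilin, plexin, ephrin and Eph receptor genes had a median of 0.13 and none past the threshold.

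The 21 tested diacylglycerol receptors and kinases had a median of -0.004, with 1 lower and 1 higher. Dgkg encodes diacylglycerol kinase gamma, which consumes the lipid that activates beta-chimaerin and is known to bind beta-chimaerin. It had 2.21, 1.92, 2.79 and 5.05 FPKM in the control mice WT_215, WT_116, WT_213 and WT_220, against 0.635, 1.28 and 0.894 in KO_117, KO_214 and KO_218. Dgkg was the 1 gene of these 21 whose groups did not overlap, while 1.53% of all genes separated downwards. Its log2 difference was -0.998 (SE 0.30, limma unadjusted p = 0.0109), with a limma unadjusted p of 0.00326 to 0.0347 over 16 alternative settings. Rasgrp2, an activator of Rap1 from the same list, had 0.651 to 2.69 FPKM in control and 2.53 to 4.29 in Med23 CKO. The log2 difference of Rasgrp2 was 0.87 (SE 0.32, limma unadjusted p = 0.0287). That p rose above 0.05 without WT_215, WT_116, WT_220 or KO_214, to as much as 0.0921 without KO_214.

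Around Tesc, the 8 tested exchangers and tescalcin relatives had a median of -0.06 and none past the threshold. The 12 tested genes of calcineurin, its regulators and NFAT had a median of 0.06 and none past the threshold. Ppp3ca, the main catalytic subunit of calcineurin in brain, was the 1 gene of these 12 whose groups did not overlap, while 1.53% of all genes separated downwards. It had 62.7 to 79.9 FPKM in control and 52.0 to 60.2 in Med23 CKO, with a log2 difference of -0.29 (SE 0.16, limma unadjusted p = 0.105). The regulatory subunit Ppp3r1 had a log2 difference of 0.06 (SE 0.18).

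Of 23 tested EF-hand sensors and buffers, 1 was lower and none higher, and the median was -0.02. Ncald, neurocalcin delta, had 70.2 to 137 FPKM in control and 33.9 to 70.6 in Med23 CKO, ranges that overlapped by a narrow margin. Its log2 difference was -0.79 (SE 0.34) at limma unadjusted p = 0.04996, and it passed under 4 of 16 alternative settings.

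**Figure D4:**
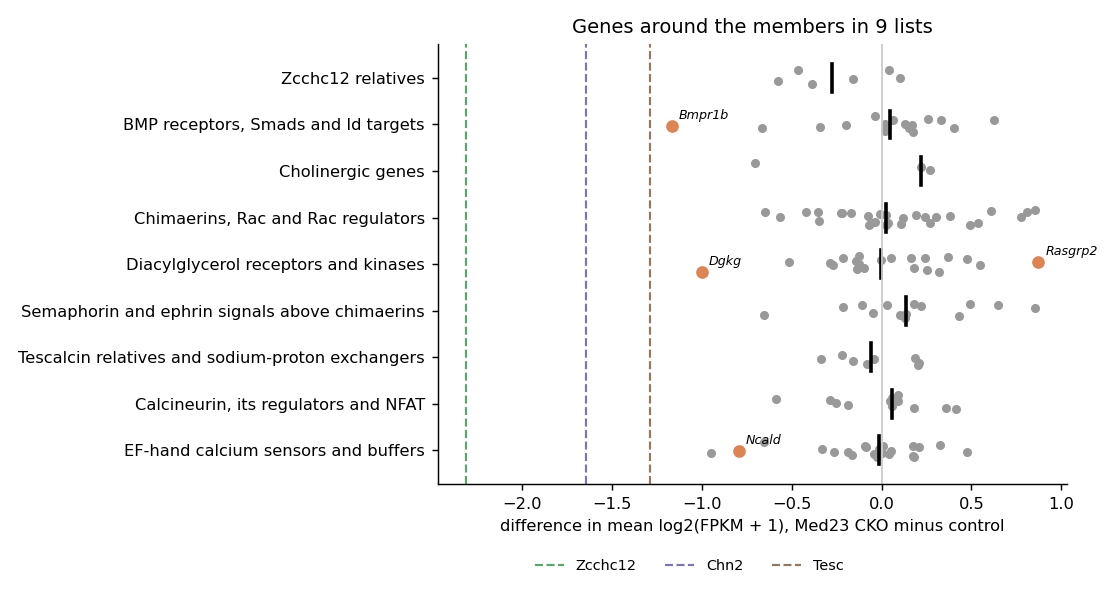
Difference in mean log2(FPKM + 1), Med23 CKO minus control, for each tested gene of 9 lists, with the list median as a black bar, genes at an unadjusted p under 0.05 in orange and dashed lines at Zcchc12, Chn2 and Tesc. The lowest of the 134 genes, Bmpr1b at -1.17, lies above Tesc at -1.29.

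Genes next to the 3 on their chromosomes were described as a further comparison that the choice did not use. Of the 18 genes that make up the 3 nearest in the table on each side, 11 passed the minimum level. None of the 11 had an unadjusted p under 0.05 by limma, the lowest being 0.256, none had groups that did not overlap, and their differences ran from -0.37 to 0.59. Leaving out 1 library gave Prr15 an unadjusted p of 0.0289 without WT_116, and Il13ra1 and Fbxo21 values of 0.0424 and 0.0499 without KO_117.

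Beside Zcchc12, Il13ra1, a subunit of the interleukin 13 receptor, ends 24.6 kb before its start and had a log2 difference of 0.59 (SE 0.60). Dock11, an activator of Cdc42, had 0.31 (SE 0.26), and Pgrmc1, a membrane heme-binding protein, had 0.04 (SE 0.33) at 81.2 to 177 FPKM in control and 84.8 to 164 in Med23 CKO. Beside Chn2, the gene 9130019P16Rik overlaps it and was under the minimum level, and Prr15 and Wipf3 had -0.37 (SE 0.38) and -0.15 (SE 0.21). Beside Tesc, Fbxw8 and Fbxo21, which encode F-box proteins of ubiquitin ligases, lie 3.10 kb after and 17.5 kb before it and had log2 differences of -0.11 (SE 0.34) and -0.17 (SE 0.30).

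**Figure D5:**
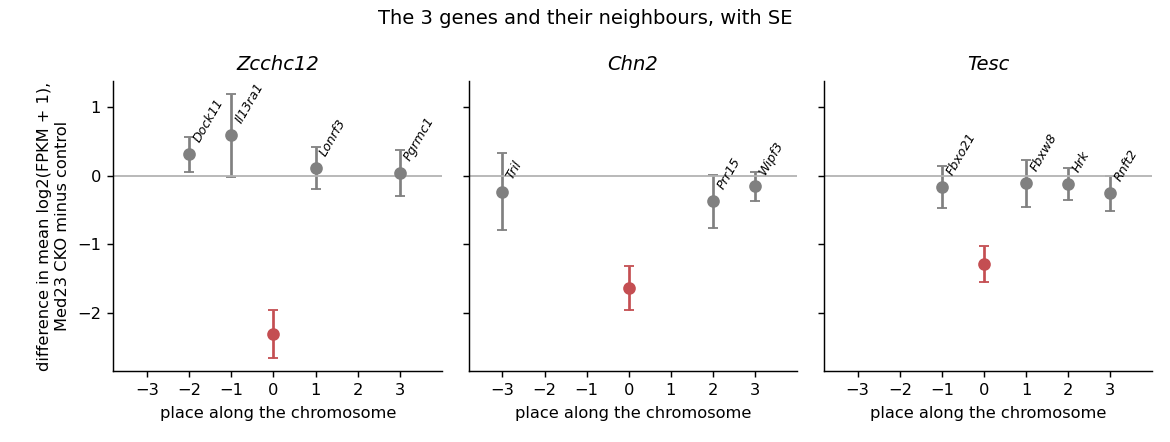
Difference in mean log2(FPKM + 1), Med23 CKO minus control, with bars of 1 SE, for each gene in red at place 0 and for its tested neighbours in grey by their order along the chromosome. The neighbours lie between -0.37 and 0.59.

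The 5 genes whose log2(FPKM + 1) correlated most with each gene over the 7 libraries were named as a description, since the group difference itself enters this measure. For Zcchc12 they were Adamts19 (Pearson's r = 0.979), Chn2 (0.978), Lpar2 (0.9701), Kcna2 (0.967) and Camkv (0.966). For Chn2 they were Adamts19 (0.989), Camkv (0.989), Zcchc12 (0.978), Pdzd3 (0.973) and Pvrl4 (0.962). Adamts19, a secreted metalloprotease, and Camkv, a kinase-like protein of neurons, were thus in both lists.

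Camkv had 9.02, 4.36, 5.55 and 12.5 FPKM in the control mice WT_215, WT_116, WT_213 and WT_220, against 1.79, 2.32 and 1.56 in KO_117, KO_214 and KO_218. Kcna2, a voltage-gated potassium channel subunit, had 16.9, 7.89, 12.6 and 18.4 FPKM in the same control mice and 6.61, 3.09 and 3.71 in the Med23 CKO mice. Adamts19 was low, at 0.593 to 2.17 FPKM in control and 0.0554 to 0.109 in Med23 CKO. All were below every control in Med23 CKO, and Adamts19, Camkv and Kcna2 had the control order of Zcchc12 and Chn2.

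For Tesc the like genes were others: Ppfia4 (0.973), Pfdn1 (0.959), Pcdhb22 (0.956), Zfp365 (0.953) and Rprm (0.949). Zfp365, a zinc finger protein, had 42.2, 53.8, 55.2 and 58.1 FPKM in the control mice WT_215, WT_116, WT_213 and WT_220, against 15.9, 32.9 and 31.6 in KO_117, KO_214 and KO_218, with KO_117 the lowest as for Tesc. Rprm, a cell cycle inhibitor known as Reprimo, had 29.1 to 41.5 FPKM in control and 21.1 to 27.8 in Med23 CKO. Over all 7 libraries, r was 0.853 between Tesc and Zcchc12 and 0.838 between Tesc and Chn2.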

How the data were processed

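RNA of primary hippocampal neurospheres was measured in 7 libraries, 4 control and 3 Med23 CKO, matched to mice by their titles. The authors aligned reads to mm10 with TopHat and deposited FPKM per gene from Cuffdiff. The study gives n = 3 per group, while the table holds 4 control libraries, and all were used. Columns of per-sample values that match no sample numbered 0. The authors' group means, fold change, p-value and q-value columns were not used.

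Values were analysed as log2(FPKM + 1) for 14151 genes with a mean of at least 0.5 FPKM, by limma 3.58.1 (lmFit and eBayes with trend) in R 4.3.3, two-sided, with Benjamini-Hochberg adjustment over these genes. The fit was tested on simulated data. Med23 was also tested by exact permutation over all 35 ways to place 4 and 3 labels. P-values measure the spread between mice. Named are Med23, relatives, list genes at an unadjusted p under 0.05 or most abundant, 3 neighbours per side, and the 5 genes most alike. Members and lists were chosen with earlier results of these data known. List genes with groups that did not overlap, Olig1, Mbp, Sox2, Gad1 and markers at 0 were named after their values were seen.

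Promoter windows and gene positions are from RefSeq (GRCm38.p6), and transcripts from GENCODE M21. Alternatives were a pseudocount of 0.1, quantile normalization, median centring, no filter, a mean FPKM of at least 1, limma without trend or with array weights, the log2 ratio of group means, a covariate for the first digit of the mouse number or for log2(Xist FPKM + 1), and each library left out. Python 3.11.15 with numpy 2.4.6 and pandas 2.3.3 was used. Some genes of the lists are not reported here by name.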

Additional observations from a re-analysis of the deposited data

How the results depend on the processing

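The log2 differences of Zcchc12, Chn2 and Tesc moved by less than the spread between mice under 14 alternatives each. They ran from -2.71 to -2.27 for Zcchc12, -1.88 to -1.54 for Chn2 and -1.51 to -1.22 for Tesc, and with 1 library left out from -2.60 to -2.14, -1.86 to -1.41 and -1.45 to -1.10. Under quantile normalization and median centring all 3 genes kept all Med23 CKO values below control, and the count of such genes was 182 to 194 over 3 alternatives. Med23 passed with array weights (-0.43, limma unadjusted p = 0.0205) and had -0.32 to -0.19 with 1 library left out.

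Genes lower at an unadjusted p under 0.05 numbered 273 with no filter, 887 with array weights and 93 with Xist as a covariate, and genes higher 195 with no filter and 193 with array weights. With 1 library left out, 70 to 410 were lower and 45 to 354 higher: 79 and 45 without WT_215, 76 lower without WT_220, 410 and 354 without KO_117, and 70 and 139 without KO_218. In the 9 lists, 5 were lower with no filter and 10 with array weights, and 2 were higher under quantile normalization or median centring, 3 with no filter or Xist as a covariate and 0 with array weights. With 1 library left out, 1 to 10 list genes were lower (1 without WT_215, WT_220 or KO_218, 10 without KO_117) and 0 to 5 higher (0 without WT_215, WT_220 or KO_214, 5 without KO_218). For neighbours both counts were 0 to 1. With 1 library left out, Zcchc18 ran from -0.0204 (reversed, without WT_220) to 0.26 and Chn1 from -0.57 to 0.0195 (reversed, without KO_214). Chp1, Dock1 and Ppp3ca passed with no filter only, and Rasgrp2 was lost with array weights. The cause was not tested.

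The methods call the control mice littermates, but the labels do not give which mice shared a litter. A paired analysis was therefore not possible, and differences between litters were not accounted for. FPKM gives no depth, so counting error is unknown.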

Other observations

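With the group means subtracted, which leaves the variation between mice of one group, the 5 genes most like Zcchc12 over 7 libraries were 1500009L16Rik (Pearson's r = 0.986), Sorcs2 (0.984), Rab36 (0.984), Zfp641 (0.984) and Gldc (0.983). Gldc, an enzyme of glycine cleavage, had 19.4, 5.09, 10.5 and 23.4 FPKM in WT_215, WT_116, WT_213 and WT_220, the control order of Zcchc12, and 10.8, 9.14 and 7.81 in KO_117, KO_214 and KO_218. Its groups overlapped, with a log2 difference of -0.42 (SE 0.47). For Chn2 the 5 were Nlrx1 (0.958), Echdc2 (0.957), Polr2f (0.957), Dgkk (0.952) and Camkv (0.950). Dgkk is another diacylglycerol kinase, and it had 2.87, 0.419, 1.66 and 7.57 FPKM in the control mice WT_215, WT_116, WT_213 and WT_220, against 0.851, 0.335 and 0.201 in KO_117, KO_214 and KO_218. Camkv was the 1 gene of these 5 that was also among the 5 most like Chn2 over all libraries. For Tesc the 5 were Ppp1r3c (0.978), Ost4 (0.978), Saysd1 (0.946), Ppfia4 (0.936) and Crnde (0.933). Ppp1r3c, a subunit that targets protein phosphatase to glycogen, had 8.64 to 14.2 FPKM in control and 10.5 to 22.0 in Med23 CKO, so it varied with Tesc between mice while its log2 difference was 0.43 (SE 0.29).

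Zcchc12 is on the X chromosome. Xist, the RNA that coats the silent X of female cells, had 91.3 FPKM in WT_220 and 111 in KO_218, and 0.0661 to 0.565 in the other libraries. Zcchc12 had 28.4 FPKM in WT_220 and 2.78 in KO_218, the highest and the lowest of the 7 values. With log2(Xist FPKM + 1) as a covariate, its log2 difference was -2.32.

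The control values of 49 genes were examined by Dixon's ratio, at its 95% critical value, for a mouse apart from the other 3. They were the members, Med23, relatives, tested neighbours, like genes, Dock1, Ppp3ca and list genes at a limma unadjusted p under 0.05. Of these 49 genes, 0 were flagged. Other genes described above, such as Id3 and Ppp3r1, were not examined.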
